A study of Mus musculus with 48 samples.

Results

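Ventral skin was compared between the late anagen and the catagen stage of the hair cycle, using the 5 libraries that carry these names: 3 of ventral late anagen and 2 of ventral catagen, of the 43 libraries in the table of skin domains and the 48 in the whole series. They were taken by the domain and stage in their names, with no measured value used. The series profiled whole microdissected skin of the dorsum, the ventrum and the chin of C57BL/6 mice at 6 consecutive hair cycle stages, together with ear skin and the ear cartilage and muscle complex. No allele or treatment separated the groups, which by their labels differed in skin domain and hair cycle stage. Total RNA of high integrity was turned into full-length cDNA by the SMART-seq2 protocol and sequenced as paired-end reads. The age and sex of the animals behind each library, and whether replicates came from separate animals, were not given in the sources used here. The p-values thus measure only the spread between libraries of the same group, pooled over all 43 skin libraries, which may be technical.

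The hair follicle (HF) cycles through growth (anagen), regression (catagen) and rest (telogen). In anagen, dividing matrix cells at the base of the HF surround the dermal papilla and build the hair shaft and its inner root sheath, while melanocytes of the bulb pass pigment to the shaft. In catagen, the matrix stops dividing and much of the lower HF is lost by apoptosis, and pigment production ends. WNT and Hedgehog signals are known to favour growth, BMP signals to hold it back, and BMP antagonists to relieve that block. Around the HF, whole skin also holds epidermis, sebaceous glands, dermis, adipose tissue and, below these, the thin striated muscle of the panniculus carnosus. A level in whole skin is a mean over all of these, so fewer cells of a type and less RNA per cell cannot be told apart.

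The catagen libraries were less alike than the late anagen libraries. Depth, estimated from the spacing of low values, was about 9570000, 13800000 and 11800000 fragments in late anagen and 8690000 and 10800000 fragments in catagen. Over 18169 genes, Pearson's r of log2 levels was 0.9753 to 0.9763 between late anagen libraries, 0.9616 between the catagen libraries and 0.9556 to 0.9635 across the stages. For catagen replicate 1, the tissue location label names the rostral ear, while its title and source name it ventral skin. Its correlation with telogen ear skin was 0.8319 to 0.8324, against 0.8404 to 0.8416 for catagen replicate 2. Its summed level of 13 HOX genes of the trunk was 36.8 FPKM, against 29.8 FPKM in replicate 2 and 0.72 and 0.95 FPKM in ear skin, so the library was used as ventral. This sum tells trunk skin from ear skin, and not ventral from other trunk skin. The late anagen libraries stood at 51.29, 53.84 and 57.55 FPKM, above both catagen libraries. The part of this difference in the comparison of the stages was not tested. The stage labels were kept as given, but the pigment and cell cycle markers of the growing bulb went against the label catagen (values follow). So catagen below stands for the libraries labelled so. FPKM counts fragments per kilobase of transcript, scaled to the mapped fragments of each library. In dorsal skin, which serves as a comparison, the catagen libraries stood farther from late anagen (r = 0.9293 to 0.9341) than in ventral or chin skin (0.9623 to 0.9666 in chin), and the part of this in the comparison of domains was not tested.

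Ventral catagen differed from ventral late anagen in a minority of genes, and mostly by small steps. Of 16334 genes tested with limma on log2(FPKM + 1), 659 were higher in catagen (4.03%) and 720 were lower (4.41%) at an adjusted p under 0.05, 8.44% in all. The counts of called list members given below are to be read against these shares. Among these, 128 of the higher and 178 of the lower genes had a log2 change of at least 1 in size. The libraries of the stages did not overlap in 43.2% of all genes tested, so the lack of overlap alone marks little. The genes with the largest falls were nearly all of skeletal muscle, and those with the largest gains were led by adipocyte genes and by the major urinary protein family. Of the called genes, 47.8% were higher, and 24.9% (358 higher and 1082 lower) after each library was rescaled to a fixed sum (TPM). Without catagen replicate 2, 230 genes were higher and 363 lower, and without replicate 1, 349 and 421.

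**Figure D1:**
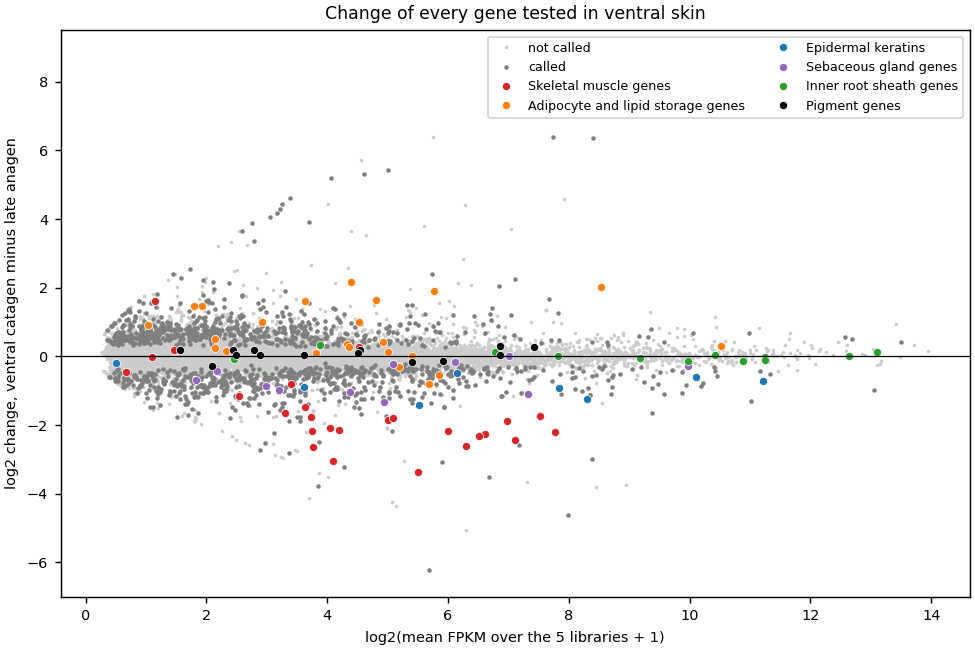
Log2 change from ventral late anagen to catagen against the mean level over the 5 libraries (both axes log2, FPKM), 1 point per gene tested; dark grey points passed the test and coloured points belong to 6 gene lists. Most skeletal muscle genes lie below 0 and many adipocyte genes above it, while inner root sheath and pigment genes lie along 0; the outermost grey points are mainly low or uneven predicted and small RNA genes.

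The genes that build the growing hair were not lower in the libraries labelled catagen. None of the 12 inner root sheath genes, 14 pigment genes and 5 type II hair keratins passed the test in either direction, and of the 9 type I hair keratins 1 was higher. The median log2 change was -0.01 for the inner root sheath, 0.07 for pigment genes and 0.03 for type I keratins, against 0.00 over all genes tested. The members named next without a call were chosen after their values were seen, for their high level. Krt71, a keratin of the inner root sheath, measured 8492, 8440 and 8652 FPKM in late anagen and 9594 and 8981 FPKM in catagen. Both catagen libraries lay above the late anagen range, but the log2 difference of 0.12 (95% interval -0.13 to 0.37) did not pass the test. Dct, dopachrome tautomerase of melanin synthesis, measured 107, 106 and 105 FPKM and then 123 and 138 FPKM, a log2 difference of 0.30 (95% interval -0.03 to 0.63) that also did not pass. Pmel, the melanosome fibril protein, measured 113, 118 and 112 FPKM and then 117 and 118 FPKM. Krt34, a hair shaft keratin, measured 546, 544 and 501 FPKM in late anagen and 784 and 779 FPKM in catagen. It was 1.47-fold higher (adjusted p = 0.00141, limma).

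Cell cycle genes were likewise not lower. All 37 had a positive log2 change, with a median of 0.26, and 3 passed the test, all of them higher: Mki67, Birc5 and Uhrf1. Over all genes tested, 8.44% passed and 4.03% were higher. Mki67, which marks dividing cells, measured 6.82, 7.43 and 6.91 FPKM in late anagen and 10.2 and 10.2 FPKM in catagen, a log2 change of 0.48 ± 0.09 (SE; adjusted p = 0.000352, limma). The call of Birc5, an inhibitor of apoptosis active in mitosis, was lost without catagen replicate 2 (adjusted p = 0.186), and that of Uhrf1 after rescaling to TPM (adjusted p = 0.214). Leaving out any 1 of the 5 libraries left 1 of the 37 called. For comparison, the mean log2 level of the pigment list was 4.17 to 4.25 in late anagen, 4.24 and 4.32 in catagen and 1.45 and 1.67 in ventral refractory telogen, the next stage. The cell cycle list stood at 3.68 to 3.72, 3.94 to 3.98 and 2.27 to 2.47 in the same order. By these 2 lists, the libraries labelled catagen were close to late anagen and far from telogen, and the falls that mark regression of the bulb were not seen in them. The hair lists separate the stages less, since they stayed high in refractory telogen. Type I keratins summed to 6327 and 6731 FPKM there, against 7804 to 8613 FPKM in late anagen. Inner root sheath genes summed to 18240 and 19990 FPKM, against 25040 to 25120 FPKM. Keratin-associated proteins summed to 107300 and 133800 FPKM, against 86050 to 90600 FPKM.

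**Figure D2:**
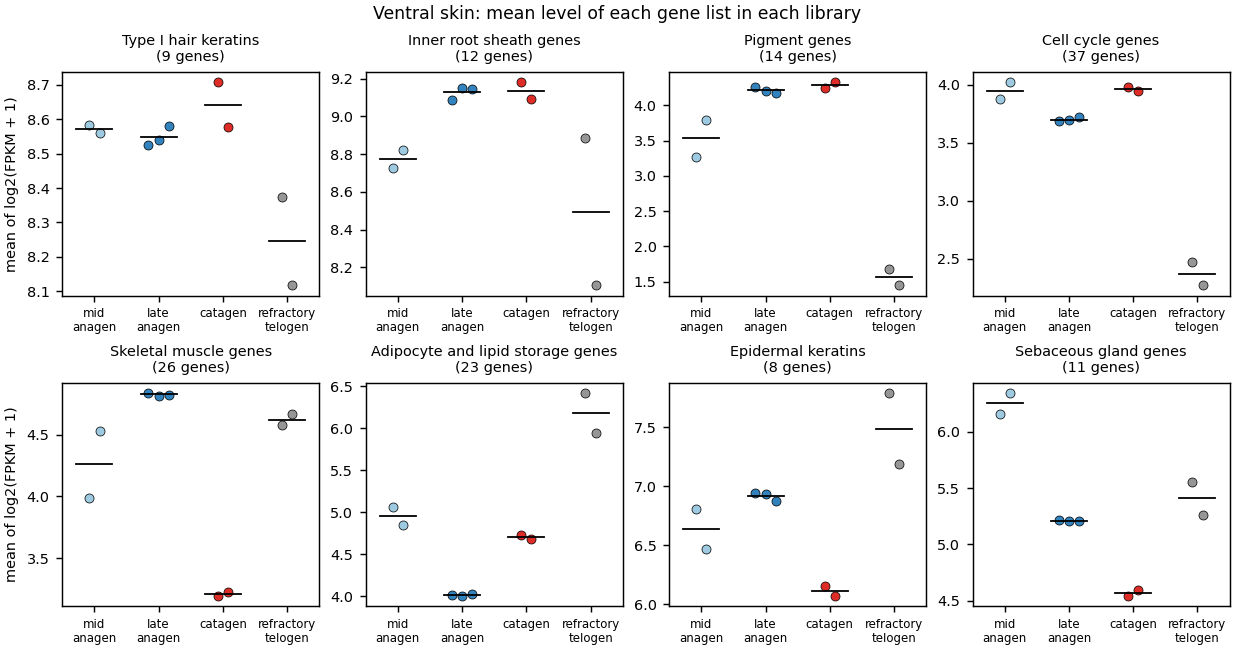
Mean of log2(FPKM + 1) over the members of 8 gene lists (vertical axis, with its own range in each panel) in each ventral library at 4 stages; points are libraries and bars are group means. Hair, pigment and cell cycle lists stay near or above late anagen in the catagen libraries, at 3.94 to 3.98 for the cell cycle list, while the muscle, epidermal keratin and sebaceous lists lie lower and the adipocyte list higher.

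The regulators of the matrix and the shaft changed little. Of 19 measured, 2 were higher and 1 lower, against 4.03% and 4.41% of all genes tested. Dlx2 and Trps1, transcription factors of the HF, were higher by 0.48 and 0.45 on the log2 scale, and Bcl11b was lower by 0.53, and all 3 calls were lost without catagen replicate 2, and over the alternatives the adjusted p reached 0.273, 0.175 and 0.205. Foxn1, which drives keratinocyte differentiation in the matrix, measured 35.1, 35.4 and 37.5 FPKM and then 40.6 and 37.6 FPKM. Msx2 and Hoxc13, regulators of shaft keratins, differed by 0.04 and 0.07. Lef1, the WNT effector of the matrix, measured 29.2, 35.0 and 32.7 FPKM and then 45.4 and 47.2 FPKM, without a call (log2 difference 0.51, 95% interval 0.08 to 0.94, adjusted p = 0.147, limma). Of 4 companion layer and stress keratins tested, Krt6a was lower, at 320, 313 and 297 FPKM and then 205 and 192 FPKM (adjusted p = 0.000147, limma).

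The hair keratin-associated proteins, which cross-link keratin in the shaft, leaned upwards, with calls in both directions. Of 56 tested, 48 had a positive and 8 a negative log2 change, with a median of 0.25. By the test, 5 were higher and 4 lower, where 4.03% and 4.41% of all genes were called in these directions. Without catagen replicate 1, 1 was higher and 4 lower, and without replicate 2, 3 and 2. Without late anagen replicate 1 or 2, 3 and 2 were higher. Krtap20-2 fell from 108, 79.6 and 87.6 FPKM to 10.2 and 9.57 FPKM. The log2 change was -3.08 (adjusted p = 1.54e-10, limma). In refractory telogen it was listed at 2272 and 3140 FPKM. Krtap31-1 also fell, from 157, 155 and 141 FPKM to 71.2 and 63.7 FPKM. Krtap19-2 and Krtap5-2 were higher, by 0.69 and 0.70 on the log2 scale, and each call was lost without a catagen library (adjusted p up to 0.18 and 0.155). These genes are close copies of each other, so the split of reads among them is uncertain.

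The largest coherent change was a fall of skeletal muscle genes. Of 26 members tested, 21 were lower and 1 higher, where 4.41% and 4.03% of all genes were called in these directions. The median log2 change was -1.87, and -2.11 to -1.81 over the 14 alternatives in processing. The summed level of the list was 1772 to 1821 FPKM in late anagen and 416 and 425 FPKM in catagen, without overlap. It stood at 1691 and 1745 FPKM in refractory telogen, so the level in late anagen was close to that of the stage after catagen. In ventral mid anagen, the stage before, the libraries stood at 1171 and 1994 FPKM, so the list also varied within a stage.

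Genes of fast-twitch fibres made up the largest falls. Pvalb, the calcium buffer parvalbumin, measured 73.6, 69.4 and 66.9 FPKM in late anagen and 5.04 and 6.68 FPKM in catagen. It was 11.9-fold lower, a log2 change of -3.38 ± 0.36 (SE; adjusted p = 2.24e-07, limma). Myh4, the myosin heavy chain of the fastest fibres, measured 25.4, 25.2 and 25.8 FPKM and then 2.09 and 2.34 FPKM. It was 11.5-fold lower, with a mean of 25.5 ± 0.32 FPKM (SD, n = 3) in late anagen and of 2.22 ± 0.18 FPKM (SD, n = 2) in catagen and an adjusted p of 2.76e-10 (limma). Tnni2, fast troponin I, was 6.35-fold lower, from 124, 120 and 106 FPKM to 17.5 and 19.2 FPKM. Ckm, the muscle creatine kinase, was 4.90-fold lower, from 133, 143 and 150 FPKM to 32.5 and 25.5 FPKM. Actn3, Myl1, Tnnt3 and Tnnc2, further parts of the fast sarcomere, fell by 2.65, 2.44, 2.32 and 2.20 on the log2 scale. Sln, Apobec2 and Smpx, which are outside the list but expressed in striated muscle, fell by 2.81, 2.51 and 2.22.

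The 5 tested members that were not called lower were Tnnc1, Tnni1, Tnnt1, Myh2 and Mb, which mark slow or oxidative fibres. Tnnc1, slow troponin C, was called higher, from 0, 0.28 and 0.37 FPKM to 2.9 and 2.49 FPKM (log2 change 1.61, adjusted p = 4.21e-05, limma), and with either catagen library left out it fell below the filter on low values. The other 4 were named after their values were seen. Tnni1, slow troponin I, measured 19.98, 19.9 and 20.9 FPKM and then 24.2 and 25.4 FPKM, without a call. Myh2, the heavy chain of fast oxidative fibres, differed by -0.01 (95% interval -0.55 to 0.52), and Tnnt1, slow troponin T, by 0.19 (95% interval -0.46 to 0.83). Mb, myoglobin, had a log2 difference of -0.81 (adjusted p = 0.0554, limma) and was just outside the threshold.

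The promoters of Myh4 and Ckm, which fell, and of Adipoq and Cfd, which rose, are shown, since members of each list moved together. They were chosen after their values were seen, among members with an entry in the RefSeq table. Each run holds the 250 bases before the transcript start, 5′ to 3′ on the gene's strand, with build GRCm38.p6. Capitals mark the matches to 3 motifs on either strand, none of which contains another. The E-box of the kind that myogenic factors bind was searched as CAGCTG. For nuclear receptors, of the kind that adipocyte regulators belong to, the element was searched as TGACCT. The core promoter's TATA box was searched by the letters TATAAA. The Myh4 promoter lies at chr11:67237562-67237811 (+), Ckm at chr7:19410844-19411093 (+), Adipoq at chr16:23146286-23146535 (+) and Cfd at chr10:79890603-79890852 (+).
Myh4: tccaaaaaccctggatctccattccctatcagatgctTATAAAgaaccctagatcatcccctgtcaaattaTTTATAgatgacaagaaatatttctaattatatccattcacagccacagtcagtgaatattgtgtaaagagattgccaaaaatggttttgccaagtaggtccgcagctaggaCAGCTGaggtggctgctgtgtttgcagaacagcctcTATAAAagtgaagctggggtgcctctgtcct
Ckm: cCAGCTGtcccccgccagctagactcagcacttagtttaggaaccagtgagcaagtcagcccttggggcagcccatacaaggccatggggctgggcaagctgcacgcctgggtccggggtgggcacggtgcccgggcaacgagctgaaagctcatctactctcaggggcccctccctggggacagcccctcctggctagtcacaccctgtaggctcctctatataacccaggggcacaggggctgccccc
Adipoq: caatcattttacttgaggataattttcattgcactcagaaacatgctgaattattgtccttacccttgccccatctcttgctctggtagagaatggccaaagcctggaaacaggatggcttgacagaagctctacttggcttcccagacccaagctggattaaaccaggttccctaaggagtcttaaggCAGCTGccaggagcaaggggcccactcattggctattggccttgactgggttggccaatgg
Cfd: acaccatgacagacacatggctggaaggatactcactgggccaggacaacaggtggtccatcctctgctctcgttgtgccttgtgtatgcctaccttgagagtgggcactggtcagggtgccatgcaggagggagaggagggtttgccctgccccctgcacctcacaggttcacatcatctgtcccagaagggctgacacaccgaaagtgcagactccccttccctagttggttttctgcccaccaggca
Myh4 held 1 E-box match, 67 bases before the start, and 3 TATA box matches, of which the nearest began 31 bases before it. Ckm held 1 E-box match at the far end and Adipoq 1, and Cfd held no match to any of the 3 motifs. The E-box letters were present in 10 of 19 muscle genes with an entry, in 3 of 18 adipocyte genes and in 13.0% of all 32851 promoters. The TATA box letters were present in 5 of the 19 muscle genes, 2 of the 18 adipocyte genes and 12.4% of all promoters. The nuclear receptor letters were present in 3 of the 19, 4 of the 18 and 14.0%. A listed gene was counted if any of its promoter entries matched, while the share over all promoters counts single entries. These measures are therefore not alike, and a gene with several entries has more chances of a match. A match describes letters and not a bound factor.

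Adipocyte and lipid storage genes moved the other way. Of 23 tested, 12 were higher and 2 lower, with a median log2 change of 0.43. Over the alternatives, 8 to 13 were higher, with 8 without catagen replicate 1. The mean log2 level of the list was 4.003 to 4.022 in late anagen, 4.68 and 4.74 in catagen and 5.95 and 6.42 in refractory telogen. Adipoq, the adipocyte hormone adiponectin, measured 27.9, 24.9 and 21.8 FPKM in late anagen and 91.7 and 99.9 FPKM in catagen. The means were 24.9 ± 3.06 FPKM (SD, n = 3) and 95.8 ± 5.75 FPKM (SD, n = 2). Adipoq was 3.86-fold higher (log2 change 1.91 ± 0.21, SE; adjusted p = 3.25e-07, limma). Cfd, the serum protease adipsin, rose 4.08-fold, from 165, 169 and 163 FPKM to 707 and 642 FPKM. Cidec, which enlarges lipid droplets, rose 4.91-fold, from 8.58, 7.09 and 7.77 FPKM to 39.2 and 37.6 FPKM. Retn, resistin, rose 3.25-fold, from 13.5, 15.1 and 14.2 FPKM to 43.3 and 49.1 FPKM. These genes were named by a rule that asks for libraries without overlap, so their lack of overlap is no further evidence. It was found in 43.2% of all genes tested.

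Not all lipid genes rose. Elovl6, a fatty acid elongase, fell by 0.80 on the log2 scale (adjusted p = 6.45e-05, limma) and Dgat2, a triglyceride synthase, by 0.54, a call that was lost without catagen replicate 2 (adjusted p = 0.0686). Both enzymes also serve the sebaceous gland. Named after their values were seen, Fabp4, the most abundant member, differed by 0.29 (95% interval 0.03 to 0.56, no call) and Fasn, fatty acid synthase, by 0.00 (95% interval -0.24 to 0.25). Outside the list, Hp, haptoglobin, a plasma protein that adipocytes also make, rose 4.23-fold, from 53.4, 47.7 and 48.0 FPKM to 197 and 223 FPKM. Rbp4, the retinol carrier, rose 4.47-fold, from 4.24, 3.44 and 3.48 FPKM to 17.6 and 15.7 FPKM. Of the 21 major urinary protein genes in the table, 12 were tested and 6 were higher, led by Mup18, at 18.7, 18.8 and 17.8 FPKM and then 108 and 96.3 FPKM (adjusted p = 0.00511, limma), and Mup10, at 61.2, 47.1 and 54.3 FPKM and then 229 and 293 FPKM. The family was taken up because it held several of the largest changes, and its copies are nearly identical, so counts for single members are uncertain. With a pseudocount of 0.1, 1 of the 12 was called higher, and with either catagen library left out 3 of 11 were. Pramel5, Rps12-ps9 and Rps15a-ps7 were among the 12 largest gains, together with Mup14 and Sfrp2. The first 3 of these genes stood at or below 2.19 FPKM in late anagen and between 5.30 and 17.8 FPKM in catagen. Rps12-ps9 and Rps15a-ps7 are pseudogenes of ribosomal proteins, so their reads cannot be told from those of their parent genes, and the call of Rps15a-ps7 held in 6 of the 14 alternatives.

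**Figure D3:**
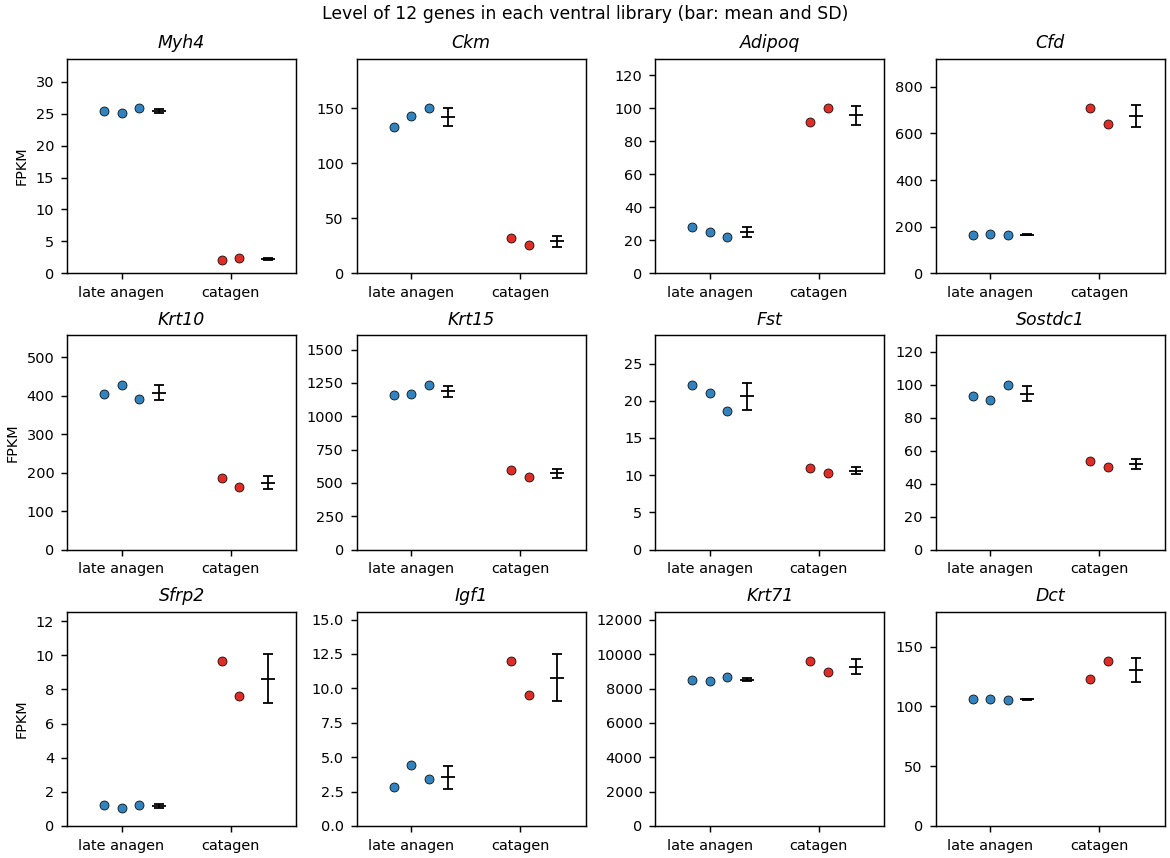
FPKM (linear axis from 0) of 12 genes in each ventral late anagen (blue) and catagen (red) library; points are libraries and black bars give the mean and SD. Myh4 and Ckm fall and Adipoq and Cfd rise well beyond the spread of replicates, while Krt71 and Dct are slightly higher in catagen without a call.

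Epidermal keratins were mostly lower in catagen. Of 8 epidermal keratins, 6 were lower and none higher, with a median log2 change of -0.80. Krt1 and Krt10 are the keratin pair of differentiating suprabasal cells. Krt1 measured 57.8, 64.9 and 57.6 FPKM in late anagen and 20.7 and 23.0 FPKM in catagen, 2.75-fold lower (adjusted p = 0.000139, limma). Krt10 measured 406, 428 and 391 FPKM and then 186 and 162 FPKM, 2.35-fold lower (adjusted p = 0.000262, limma). Krt77 and Krt78, further keratins of differentiated epidermis, fell by 0.91 and 0.89, and both calls were lost with either catagen library left out, with adjusted p up to 0.08 and 0.236. Of the 5 calls on cornified envelope genes that were lower among 34 tested entries, the largest was Lor, loricrin, at 1008, 921 and 756 FPKM and then 473 and 169 FPKM. Lce3a was called higher, at 4.31, 4.53 and 5.37 FPKM and then 7.52 and 10.1 FPKM. Without catagen replicate 1, 2 cornified envelope genes were called lower, and 3 without late anagen replicate 2. Without catagen replicate 2, no cornified envelope gene was called, the adjusted p of Lor was 0.19, and 3 of the 8 keratins were called lower.

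Basal cell genes moved in the same direction, by less. Krt14, the basal keratin shared by epidermis and outer root sheath, measured 2863, 2869 and 2709 FPKM and then 1814 and 1619 FPKM, 1.64-fold lower (adjusted p = 0.000117, limma). Krt5, its partner, fell by 0.59, a call lost without catagen replicate 2 (adjusted p = 0.10). Of 9 hemidesmosome and basement membrane genes, a list set up after values were seen, 4 were lower, and 2 without catagen replicate 1. Col17a1, a collagen of the hemidesmosome, measured 49.3, 45.2 and 38.3 FPKM and then 22.0 and 20.3 FPKM. The 11 Skint genes, of which the first is needed for the maturation of epidermal T cells and which were also taken up after values were seen, held 9 lower, with a median of -1.12. Skint10 measured 30.7, 30.0 and 29.9 FPKM and then 10.2 and 9.58 FPKM, 3.05-fold lower. All 7 markers chosen likewise for Langerhans cells and dendritic epidermal T cells were lower. The count was 3 without catagen replicate 2, and 4 without catagen replicate 1 or without late anagen replicate 1. Cd207, the Langerhans cell receptor langerin, measured 3.36, 3.73 and 3.47 FPKM and then 1.11 and 0.87 FPKM. Tcrg-C1, a T cell receptor gamma constant gene, measured 5.26, 5.52 and 3.72 FPKM and then 1.78 and 0.96 FPKM.

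The sebaceous gland list followed the epidermis. Of 11 tested, 5 were lower and none higher, all 11 had a negative log2 change, and the median was -0.68. Cidea, a lipid droplet protein of sebocytes, measured 39.97, 36.8 and 41.6 FPKM and then 13.4 and 17.1 FPKM, 2.59-fold lower (adjusted p = 1.9e-06, limma). Krt79, a keratin of the gland and its duct, measured 196, 203 and 207 FPKM and then 103 and 87.3 FPKM. Fa2h and Far2, enzymes of sebum lipids, fell by 1.02 and 0.97. Elovl3 and Scd1, named after their values were seen, differed by 0.00 (95% interval -0.28 to 0.28) and -0.17 (95% interval -0.57 to 0.22).

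HF stem cell genes leaned downwards. Of 12 tested, 4 were lower, and 11 had a negative sign, with a median of -0.33. Without catagen replicate 1, 1 of the 12 was called lower, and 2 without catagen replicate 2 or without late anagen replicate 2. Krt15, the bulge keratin that basal epidermis also expresses, measured 1156, 1167 and 1235 FPKM in late anagen and 594 and 547 FPKM in catagen. It was 2.08-fold lower (adjusted p = 4.55e-05, limma) and fell in all 14 alternatives. Nfatc1 and Lgr6 fell by 0.50 and 0.43 and Cd34 by 0.40, and all 3 calls were lost in at least 1 alternative that left out a catagen library, with adjusted p up to 0.171, 0.116 and 0.238. In the libraries in which the epidermal, sebaceous and stem cell lists were lower, the summed level of 26 muscle genes was 416 to 425 FPKM against 1772 to 1821 FPKM, and that of 23 adipocyte genes 2847 to 2904 FPKM against 1841 to 1977 FPKM. The part of these shifts in the other lists was not tested.

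Among signals, 3 of 7 BMP antagonists and 1 of 7 BMP ligands tested were lower and none higher. The median log2 change was 0.03 for the antagonists and -0.28 for the ligands. Fst, follistatin, which binds activins and BMPs, measured 22.1, 21.0 and 18.6 FPKM in late anagen and 10.9 and 10.3 FPKM in catagen. It was 1.94-fold lower, a log2 change of -0.89 ± 0.08 (SE; adjusted p = 2.81e-08, limma). Sostdc1, an antagonist of BMP and WNT, measured 93.3, 90.6 and 99.8 FPKM and then 54.0 and 49.96 FPKM, 1.82-fold lower (adjusted p = 9.8e-06, limma). Grem1, gremlin, fell by 0.66, a call lost without catagen replicate 2 (adjusted p = 0.103). Nog and Bambi differed by 0.07 and 0.03, and Chrdl1 and Fstl1 by 0.54 and 0.42 without a call. Of the ligands, Gdf10 fell from 8.85, 7.18 and 7.41 FPKM to 3.23 and 4.08 FPKM (adjusted p = 0.000559, limma). Bmp2 and Bmp4 differed by -0.32 (95% interval -0.55 to -0.09, adjusted p = 0.08, limma) and -0.28 (95% interval -0.54 to -0.03), without a call. None of the 6 BMP response genes was called.

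WNT ligands and their secreted antagonists were called in small numbers. Of 17 ligands and R-spondins tested, 3 were lower, Wnt7b, Wnt16 and Wnt6, with 1 called without catagen replicate 1 and none without replicate 2. Wnt7b, an epithelial ligand, measured 6.89, 6.99 and 7.54 FPKM and then 4.35 and 3.89 FPKM, and its adjusted p rose from 0.0048 to 0.086. Wnt5a and Wnt10b differed by -0.01 each, Wnt10a by -0.23 and Wnt3 by -0.20. Of 11 antagonists, Sfrp2, a secreted frizzled-related protein, rose 7.45-fold, from 1.24, 1.04 and 1.2 FPKM to 9.65 and 7.63 FPKM (adjusted p = 5.46e-06, limma). Sfrp4 rose as well, from 1.19, 1.79 and 2.13 FPKM to 7.02 and 4.98 FPKM (adjusted p = 0.000588, limma). Dkk3 and Sfrp1 were lower, by 0.52 and 0.24, and both calls were lost without catagen replicate 2 (adjusted p = 0.0891 and 0.319). Wif1, which the dermal papilla expresses, measured 16.1, 16.8 and 19.4 FPKM and then 23.8 and 22.0 FPKM, without a call. None of the 10 WNT target genes was called.

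Of the 8 Hedgehog genes reported here, 1 was higher and none lower. Gli1, a transcriptional effector, rose by 0.47 (adjusted p = 0.0177, limma). The call was lost after rescaling to TPM, with only the 5 libraries fitted and without late anagen replicate 2. It was also lost with either catagen library left out. The ligand Shh differed by 0.09 (95% interval -0.37 to 0.55) and Ptch1 by 0.07 (95% interval -0.18 to 0.33).

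Signals known to drive catagen showed few differences. Of 11 tested members, Ntrk2, the receptor of brain-derived neurotrophic factor, was higher, from 0.97, 1.05 and 0.96 FPKM to 1.69 and 1.68 FPKM (adjusted p = 0.00285, limma), with the call lost when only the 5 libraries were fitted (adjusted p = 0.0826). Ntf3, neurotrophin 3, was lower, from 1.99, 1.63 and 2.23 FPKM to 0.69 and 1.31 FPKM. This call was lost without the filter on low values, with only the 5 libraries fitted, without late anagen replicate 1 or 3 and without catagen replicate 1. Fgf5, the inducer of catagen whose loss lengthens anagen, measured 5.24, 5.85 and 4.84 FPKM and then 8.54 and 8.10 FPKM. The log2 difference of 0.56 (95% interval 0.11 to 1.02) did not pass the adjustment (adjusted p = 0.122, limma). Tgfb1 and Tgfb2 differed by 0.31 and -0.34, both with intervals across 0. Bdnf, Tnf and Ifng were below the filter, and these levels do not allow a comparison. Of 23 apoptosis genes, Casp14 was lower and none was higher. Casp14, a caspase of cornification, measured 38.7 to 40.8 FPKM in late anagen and 18.5 and 19.6 FPKM in catagen (adjusted p = 0.00057, limma).

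**Figure D4:**
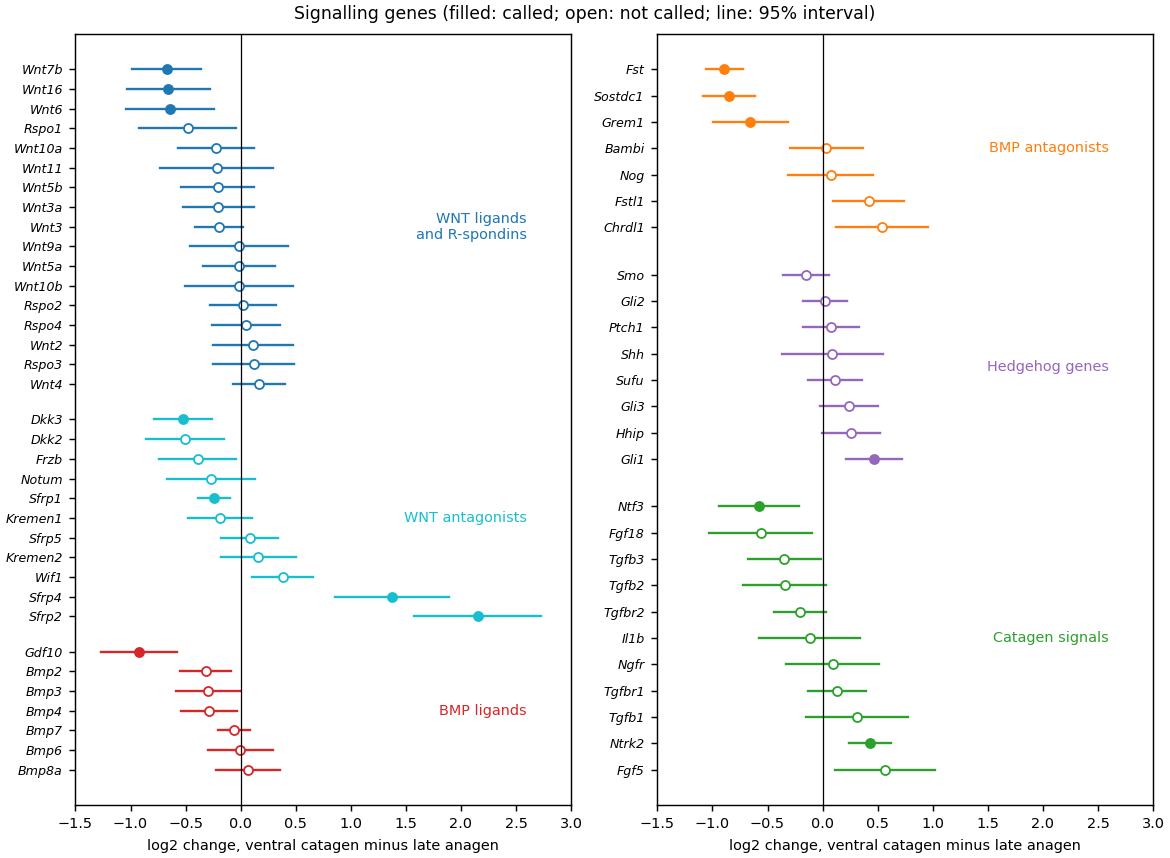
Log2 change from ventral late anagen to catagen (horizontal axis) with its 95% interval for the tested and reported members of 6 signalling lists; filled points passed the test and open points did not. Fst and Sostdc1 lie below 0 and Sfrp2 and Sfrp4 above 1, while most ligands have intervals that reach or cross 0.

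Of 15 dermal papilla genes tested, Igf1 was called. Igf1, a growth factor of the papilla and also of other dermal and adipose cells, measured 2.80, 4.45 and 3.40 FPKM in late anagen and 12.0 and 9.55 FPKM in catagen, 3.03-fold higher (adjusted p = 1.53e-06, limma). It was listed at 29.1 and 30.6 FPKM in refractory telogen. The study named putative activators and inhibitors of the cycle from the time course of a separate whole skin microarray set. Of 221 activators tested, 9 were higher and 11 lower, and of 118 inhibitors 3 and 5, shares near or below those of all genes. The activators called higher included Chek2, a checkpoint kinase, at 32.7, 29.0 and 30.0 FPKM and then 85.4 and 63.9 FPKM. Those called lower included Fst, Sostdc1 and Mef2c, a factor of muscle and other mesenchyme, which fell by 1.15. Without catagen replicate 2, 4 activators were higher and 7 lower and 1 inhibitor lower, and without catagen replicate 1, 1 inhibitor was higher and 1 lower. Without late anagen replicate 1, 1 inhibitor was higher and 3 lower, and without late anagen replicate 2, 1 was lower. Without late anagen replicate 2, 1 activator was higher, and without catagen replicate 1, 2 were higher and Chek2 was not called (adjusted p = 0.184).

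Immune cell lists gave few calls. Of 21 macrophage genes, 3 were higher and 1 lower, against 4.03% and 4.41% of all genes tested. The 3 were the chains of complement C1q, of which C1qb measured 9.66, 11.6 and 12.4 FPKM and then 24.3 and 26.8 FPKM (adjusted p = 0.00132, limma). Without catagen replicate 1, 1 macrophage gene was called higher. H2-Eb1, of MHC class II, was lower by 0.68, a call lost without late anagen replicate 2 or 3 and with either catagen library left out. Of 5 mast cell genes, Tpsb2, a tryptase, rose 3.22-fold, from 3.99, 3.17 and 3.47 FPKM to 10.0 and 12.8 FPKM (adjusted p = 3.42e-05, limma), and Mcpt4, a chymase, rose by 0.67 with a wide spread in catagen, 11.2 and 20.3 FPKM. The call of Mcpt4 was lost without catagen replicate 2 (adjusted p = 0.6). Of 8 T cell genes, Cd3g and Trbc2 were lower, by 0.77 and 0.41, and the first call was lost without catagen replicate 2 (adjusted p = 0.312) and the second without replicate 1 (adjusted p = 0.228). The 2 neutrophil genes, 12 vessel genes, 7 nerve sheath genes and 5 red blood cell genes tested gave no call.

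Immediate early genes, which are induced rapidly by stress and growth signals, were lower in part. Of 13 tested, 7 were lower and none higher, with a median of -0.29, and without catagen replicate 1 the count was 4. Dusp1, a phosphatase of MAP kinases, measured 42.3, 43.9 and 42.2 FPKM and then 20.3 and 20.9 FPKM (adjusted p = 4.63e-07, limma). Fos measured 79.0, 86.4 and 85.3 FPKM and then 44.8 and 39.9 FPKM, 1.98-fold lower. Atf3 and Nr4a1 fell by 1.04 and 0.95.

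In the dermis, the calls went in both directions. For comparison, 4.03% of all genes tested were called higher and 4.41% lower. Of 19 dermal matrix genes, 4 were lower and 1 higher, with 1 lower when either catagen library was left out and 2 without late anagen replicate 1. Sparc, a collagen-binding glycoprotein, measured 815, 763 and 735 FPKM and then 507 and 520 FPKM (adjusted p = 0.00054, limma). Col1a2 and Col3a1, the fibrillar collagens, fell by 0.52 and 0.59, and Mfap4 by 0.82, and these 3 calls and the rise of Mfap5 by 0.67 were each lost without a catagen library (adjusted p up to 0.11, 0.146, 0.118 and 0.362). Of 9 smooth muscle genes, Des and Cnn1 were lower. Des, desmin, which striated muscle also holds, fell by 1.35, from 11.8, 12.0 and 10.9 FPKM to 3.96 and 3.88 FPKM. Of 11 trunk position genes tested, 4 were lower. Hoxa7 measured 13.8, 14.2 and 17.6 FPKM and then 4.58 and 3.10 FPKM, a fall of 1.75 on the log2 scale (adjusted p = 0.000293, limma). All 4 are homeobox genes that set position along the body axis, and 1 member of the list was called lower without catagen replicate 2 and 2 without late anagen replicate 2. Of 8 simple epithelial and mammary genes, Epcam and Upk3b were lower, by 0.43 and 0.52, and both calls were lost without catagen replicate 1 (adjusted p = 0.0853 and 0.125). Csn2 and Wap, which encode milk proteins, were listed at 0 in all 5 libraries.

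The change in ventral skin was then tested against the change between the same stages in dorsal skin (3 late anagen and 2 catagen libraries) and in chin skin (2 and 3). The question was which ventral changes were not shared by the other domains. Both tests use the same ventral libraries. The summed level of 11 trunk position genes was 34.4 and 33.9 FPKM in chin late anagen and 8.1 to 9.73 FPKM in chin catagen. In ventral skin it was 50.98 to 57.0 FPKM and then 36.5 and 29.8 FPKM. In dorsal skin it was 28.2 to 29.99 FPKM and then 20.5 and 21.95 FPKM. The groups compared thus also differed in genes of body position, most of all in chin skin, and the part of this was not tested. The change differed between ventral and dorsal skin in 5334 of 17489 genes (30.5%), with 2738 higher in ventral (15.7%) and 2596 lower (14.8%). It differed between ventral and chin skin in 2397 of 17686 genes (13.6%), with 764 higher (4.32%) and 1633 lower (9.23%). The split for chin skin depends on the scaling, since 31.9% of the genes were higher in the ventral change as deposited, 11.9% after rescaling to TPM and 47.9% when libraries were scaled by their median ratio. The medians over all genes moved with it, at -0.08, -0.26 and 0.01 on the log2 scale. The counts and differences against chin skin given below use the values as deposited and are not corrected for that shift.

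The muscle list was lower in catagen in ventral and chin skin and higher in dorsal skin. Its median log2 change was -1.87 in ventral, 2.66 in dorsal and -0.68 in chin skin. Of 27 members tested against dorsal skin, all but 1 had a lower change in ventral skin (26 lower), and of 26 tested against chin skin 15 were lower and 2 higher. Myh4 measured 5.75, 5.94 and 6.65 FPKM in dorsal late anagen and 72.2 and 70.1 FPKM in dorsal catagen, the opposite of ventral skin. In chin skin it fell from 92.7 and 91.5 FPKM to 45.3, 49.6 and 46.3 FPKM. The summed level of the list was 739 to 769 FPKM in dorsal late anagen, 5031 and 5202 FPKM in dorsal catagen, 8669 and 8926 FPKM in chin late anagen and 4969 to 5262 FPKM in chin catagen. The list thus differed between the stages in each domain, with dorsal skin opposite in direction to ventral and chin skin. The adipocyte list had a median change of 0.43 in ventral, -0.03 in dorsal and -0.49 in chin skin, and 12 of its 23 members had a higher change in ventral than in dorsal skin and 15 of 23 than in chin skin. Adipoq rose in dorsal skin from 74.5 to 76.7 FPKM to 113 and 113 FPKM, and the ventral change exceeded the dorsal by 1.34 (adjusted p = 0.000718, limma). In chin skin it went from 185 and 181 FPKM to 98.2, 98.2 and 105 FPKM, and the difference was 2.77 (adjusted p = 2.87e-07, limma).

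The falls of Fst and Sostdc1 were not shared. Fst measured 13.2 to 14.8 FPKM in dorsal late anagen and 16.7 and 15.0 FPKM in dorsal catagen, and 15.2 and 13.8 FPKM in chin late anagen and 13.3 to 14.0 FPKM in chin catagen. Its ventral change was lower than the dorsal by 1.07 (adjusted p = 3.6e-08, limma) and than the chin change by 0.82 (adjusted p = 1.77e-05, limma). Sostdc1 measured 104 to 109 FPKM and then 102 and 108 FPKM in dorsal skin, and 49.6 and 51.0 FPKM and then 64.8 to 71.3 FPKM in chin skin. Its ventral change was lower by 0.84 than the dorsal (adjusted p = 0.000226, limma) and by 1.28 than the chin change (adjusted p = 4.62e-06, limma). Gli1 had a higher change in ventral than in dorsal skin, by 1.09 (adjusted p = 2.2e-05, limma), while no difference from chin skin was called (adjusted p = 0.563, limma). Sfrp2 was higher by 3.09 against chin skin, where it went from 11.6 and 11.3 FPKM to 5.13 to 5.73 FPKM, and the difference of 0.95 from dorsal skin was not called (adjusted p = 0.0739, limma).

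Hair lists gave different median changes in the 3 domains. Over all genes, 15.7% had a higher and 14.8% a lower change in ventral than in dorsal skin. Against chin skin the shares were 4.32% and 9.23%. The median change of the inner root sheath list was -0.01 in ventral, -0.41 in dorsal and 0.13 in chin skin, and of pigment genes 0.07, 0.13 and 0.64. Of 9 type I hair keratins, 5 had a higher and 1 a lower change in ventral than in dorsal skin, and of 5 type II keratins 4 were higher. For Krt80, which belongs to the epidermal keratin list and not to the hair lists, the ventral change exceeded the dorsal by 4.66 (adjusted p = 9.74e-09, limma). In dorsal skin the gene went from 51.1 to 54.1 FPKM in late anagen to 0.24 and 0.86 FPKM in catagen. Of 56 keratin-associated proteins, 29 had a higher change in ventral than in chin skin and none a lower, and 17 had a higher and 6 a lower change than in dorsal skin. Of 14 pigment genes, 5 had a lower change in ventral than in chin skin, and against dorsal skin 3 were lower and 1 higher. None of the 12 inner root sheath genes differed from chin skin by the test, and 5 were higher and 2 lower against dorsal skin. Cell cycle genes had a median change of 0.26, 0.19 and 0.53, so the list had no negative median in any of the 3 domains with the values as deposited.

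Epidermal and immune lists also differed between the domains. The median change of epidermal keratins was -0.80 in ventral, -0.50 in dorsal and 0.08 in chin skin, with 4 of 8 lower against chin and 3 lower and 1 higher against dorsal skin. Of 35 cornified envelope genes tested against dorsal skin, 16 had a higher and 2 a lower change in ventral skin, and of 34 tested against chin skin 3 were higher and 7 lower. Krt10 went from 139 and 141 FPKM to 172 to 185 FPKM in chin skin, and the ventral change was lower by 1.57 (adjusted p = 0.000733, limma). Of 11 Skint genes, 10 had a lower change in ventral than in chin skin. Sebaceous genes were lower in 6 of 11 against chin skin and had close medians in ventral (-0.68) and dorsal skin (-0.64). Macrophage genes had a median of 0.05, 0.05 and -0.83, and 11 of the 23 tested against chin skin had a higher change in ventral skin. Of 8 T cell genes, 1 was higher and 1 lower against chin skin and none differed from dorsal skin by the test. The shares over all genes were 15.7% higher and 14.8% lower against dorsal skin, and 4.32% and 9.23% against chin skin. C1qb went from 84.1 and 80.4 FPKM to 18.9 to 22.9 FPKM in chin skin.

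**Figure D5:**
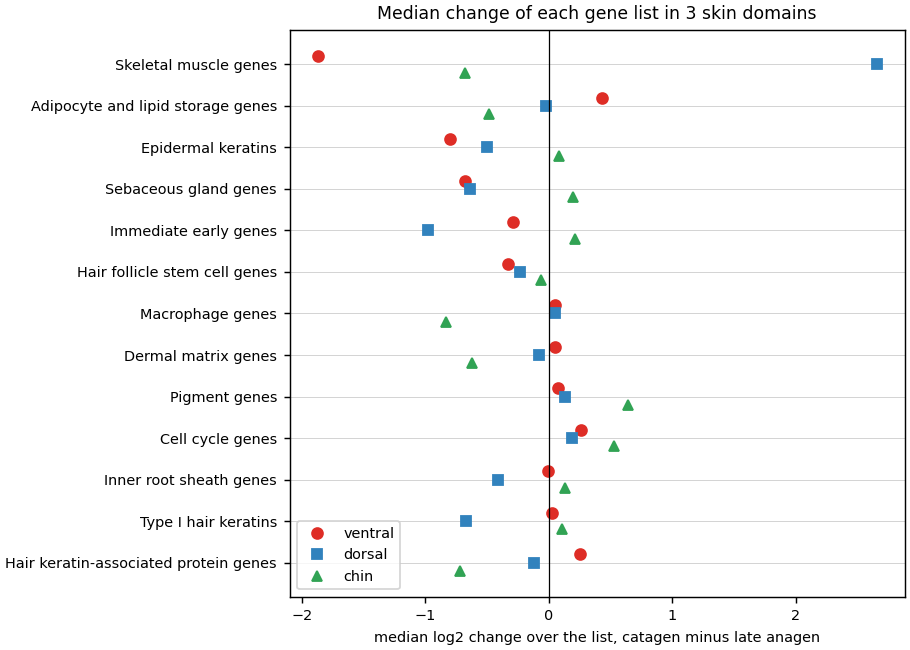
Median log2 change from late anagen to catagen (horizontal axis) over the members of 13 gene lists in ventral (circles), dorsal (squares) and chin (triangles) skin. The muscle list lies at -1.87 in ventral, 2.66 in dorsal and -0.68 in chin skin, and the adipocyte list is above 0 in ventral skin alone of the 3 domains under the scaling as deposited.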

How the data were processed

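The authors aligned the reads and estimated expression with RSEM 1.2.25 on the mouse build mm10, as the submitters' processing notes name them. They deposited a table of FPKM for 46983 genes. The study states a batch correction of the samples, whose method is not given in the sources used here, and its effect on these values was not tested. FPKM values are normalized. Depth was estimated from the spacing of low FPKM values of 9454 genes with 1 transcript, taken as whole numbers of fragments. Libraries were assigned by the domain and stage in the column names. All 43 skin libraries were fitted as 18 groups with limma 3.58.1 (R 4.3.3) on log2(FPKM + 1) with a variance trend. A gene was tested where 2 or more of the libraries compared reached 0.5 FPKM, with Benjamini-Hochberg adjustment over all of them and a threshold of 0.05. A fold change on this scale understates the change of low genes, so folds in the text are ratios of mean FPKM. The ventral change was set against the dorsal and chin changes with interaction terms. The steps were tested on simulated data.

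The members and gene lists were chosen with earlier results of these data known. In 4 lists (hemidesmosome and basement membrane, Langerhans cells and epidermal T cells, Skint, major urinary proteins) the genes were chosen after their values were seen. The genes named were up to 4 called members per list whose libraries did not overlap, measured members of the signalling lists, the 12 largest changes each way with a mean of at least 5 FPKM, the 5 largest differences each way per domain comparison and families with several such genes. Other genes named were chosen after their values were seen. The 14 alternatives were another pseudocount (0.1), no filter, a minimum of 5 FPKM, 3 other scalings, no variance trend, a replicate block, the 5 libraries alone and each library left out. Promoters came from the RefSeq table of GRCm38.p6. Some members of these lists are not reported here and were left out of their counts. Columns of other tissues were not used in tests.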

Additional observations from a re-analysis of the deposited data

Results flagged for a closer look

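The results given here were picked because the change from late anagen to catagen differed between ventral skin and another domain by the interaction test. They are log2 differences of the ventral change minus the other change, with no explanation weighed, and both comparisons use the same ventral libraries. The change differed in 5334 genes against dorsal skin and in 2397 genes against chin skin.

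Against dorsal skin, muscle genes had the lowest differences among those named, with Myh4 at -6.39, Tnni2 at -5.87 and Sln at -5.77. The antagonists Fst and Sostdc1 stood at -1.07 and -0.84, and the Hedgehog target Gli1 at 1.09. The adipocyte genes Adipoq, Cfd and Cidec stood at 1.34, 1.42 and 3.17. Krt80 stood at 4.66, the mitochondrial leucyl-tRNA synthetase gene Lars2 at 4.17, AA465934 at 3.46 and the pseudogene Rps12-ps9 at 3.86.

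Against chin skin, Adipoq, Cfd, Cidec and Retn had differences of 2.77, 2.90, 2.85 and 3.21. Sfrp2 stood at 3.09, Igf1 at 1.93, C1qb at 3.05, Krt34 at 1.52, Mup18 at 4.04 and Mup7 at 4.43. Lower changes in ventral skin were measured for Fst (-0.82), Sostdc1 (-1.28), Myh4 (-2.09) and Dusp1 (-1.23). The epidermal genes Krt1, Krt10, Skint10, Serpinb7, Gdpd2, Lipn and Lor stood at -1.83, -1.57, -2.04, -2.87, -2.61, -2.77 and -2.58.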

How the results depend on the processing

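Of 167 genes named by rule or in the text, 118 passed the test, and 62 of these passed under every alternative in which they were tested. No result turned its direction with a call. Genes higher in ventral catagen numbered 324 of 9362 tested with a minimum of 5 FPKM and 358 of 16299 after rescaling to TPM. Genes lower numbered 1082 after rescaling. With 1 library left out, 230 to 490 genes were higher and 363 to 570 lower. Genes whose change was higher in ventral than in chin skin numbered 463 after rescaling to TPM, 1151 with scaling by the median of ratios and 492 with the replicate block, and genes lower numbered 3418 and, with the block, 957. With 1 library left out, these counts were 451 to 690 and 896 to 1340, with the lowest without chin late anagen replicate 2, and those against dorsal skin 2159 to 2565 and 1960 to 2445. The cause was not tested. The labels do not say that replicate numbers pair libraries, and same-numbered ventral libraries did not deviate together (correlations of -0.07 and -0.11), so the fit with the replicate number as a block, which gave 449 higher and 526 lower genes in ventral skin, is given here alone. Catagen rests on 2 libraries, and low genes are limited by depths of 8690000 to 13800000 fragments.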
